A study of Mus musculus with 108 samples.

Results

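The 10 genes described here are parts of the circadian clock: Clock, Npas2, Nr1d1, Nr1d2, Per1, Per2, Per3, Cry1, Dbp and Nfil3. They were chosen by gene symbol, each through the brightest of the probes that the platform annotation gives that symbol, and they are 10 of 15129 genes with a value on these arrays. The livers came from ovariectomized female C57BL/6 mice given 300 mg/kg Wy-14643, 300 mg/kg clofibrate or the sesame oil vehicle by gavage. Mice were killed 2, 4, 8, 12, 18 or 24 h after 1 dose, or 1, 4 or 14 days after the start of daily dosing. Each compound had its own arm of 54 arrays, with 3 treated and 3 vehicle livers at each time, and the 108 arrays form 36 groups of 3 biological replicates. The age of the mice and the time of day of dosing and killing are not given in the sources used here, so hours after the dose and time of day cannot be told apart.

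The mammalian clock is a loop of transcription factors. CLOCK, or its relative NPAS2, pairs with BMAL1 (gene Arntl) and switches on genes that carry E-box sites, among them the Per and Cry genes, whose proteins return to the nucleus and repress that pair. The REV-ERB nuclear receptors (Nr1d1 and Nr1d2) repress Arntl, and the activator DBP and the repressor NFIL3 compete for D-box sites. In liver the loop times bile acid, lipid and drug metabolism and is set largely by feeding. Wy-14643 and clofibrate activate PPARα, the nuclear receptor that drives fatty acid oxidation genes in rodent liver.

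Values are log2 fluorescence from single-colour Agilent arrays as the authors deposited them, scaled so that arrays share 1 75th percentile. They compare a probe with itself across samples and not with other probes. Where a group has no value for a probe the gene is called not listed, which is not a level of 0. Clock, Nr1d2, Per1, Dbp and Nfil3 were listed in all 36 groups, Per2 in 35, Nr1d1 in 30, Cry1 in 25, Per3 in 15 and Npas2 in 2. Dbp reached the scanner limit on 8 arrays, all of vehicle livers (4 in each arm, and all 3 at 8 h in both), so those vehicle levels are lower bounds and treated minus vehicle may be understated there. A gene was tested where both groups had values, and it is called where its limma p adjusted over all genes tested was under 0.05. Groups said to be apart or without overlap are described by their 3 arrays each. The share of all genes without overlap is not given, so this is not a test.

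Several features of the arrays touch all results below. Deviations from the group mean were alike in vehicle arrays of equal number in the 2 arms, with a median absolute difference of 0.17 log2, against 0.34 between arrays of other numbers, over the 5 genes listed throughout. The labels do not say whether the arms shared vehicle livers, so the effects of the compounds may share controls and are given side by side. The 14 day vehicle array 1 of the clofibrate arm was almost a copy of the 4 day vehicle array 1 (Pearson r = 0.99998 over probes, against 0.9953 for the next closest pair). The main tests at both times were made with and without it. Tests with replicate numbers taken as pairs were made only with it. Of 5 PPARα target genes tested 4 rose with Wy-14643 and 3 with clofibrate in the mean over all times. Cyp4a14 was at the scanner limit on at least 24 of 27 vehicle arrays in each arm, and it and Cyp4a10 on all treated arrays. Acot1 and Ehhadh were at the limit on all 27 arrays with Wy-14643, and on 12 and 23 with clofibrate. Rises of these genes may be understated, and an uncalled one may still have responded. All 6 Kupffer cell markers fell in the mean with Wy-14643 (median -0.27 log2), and none of 6 was called with clofibrate (median -0.09). The log2 of their summed fluorescence, in which the brightest probes weigh most, ran from 15.08 to 16.21 in Wy-14643 livers and from 15.07 to 16.84 in their vehicle livers. It ran from 15.34 to 16.55 in clofibrate livers and from 15.31 to 16.79 in theirs. No Kupffer marker was unlisted. Of 5 hepatocyte markers the 3 measured ones were listed on every array, of which Alb and Apoa1 were at the scanner limit on most arrays and Ttr fell with Wy-14643 by 0.70. With Wy-14643, where 56.7% of all genes were called in the mean, 2 of 5 endothelial, 3 of 4 stellate and 2 of 3 bile duct markers fell and the 1 lymphocyte marker tested was not called, and with clofibrate neither Ttr nor any of 5 endothelial and 4 stellate markers was called. In a whole liver, fewer cells of a type and less RNA per cell cannot be told apart. The part of these shifts in the clock gene results was not tested.

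Promoters are shown for the genes whose start site carries a clock motif. RefSeq promoter sequences (GRCm38.p6, 250 bases before to 50 after a start site) were matched for 9 of the 10 genes, as 12 promoters. They were searched on both strands for the E-box CACGTG, the D-box TTATGTAA and the nuclear receptor repeat made of AGGTCA, any 1 base and AGGTCA again, which no promoter of the 9 genes held. An E-box was found in 7.15%, a D-box in 0.938% and the repeat in 0.0396% of all 32851 promoters. The E-box was present in 1 of 2 Per1 promoters and in Cry1, and the D-box occurred 2 times in Per3. A match is a description of the letters, and its use by a factor was not tested. Capitals mark the motifs in Per1 (chr11:69098699-69098998, plus strand, E-box ending 160 bases before the start), Per3 (chr4:151044616-151044915, minus strand, 2 D-boxes before the start) and Cry1 (chr10:85185005-85185304, minus strand, E-box ending 54 bases before the start).
Per1: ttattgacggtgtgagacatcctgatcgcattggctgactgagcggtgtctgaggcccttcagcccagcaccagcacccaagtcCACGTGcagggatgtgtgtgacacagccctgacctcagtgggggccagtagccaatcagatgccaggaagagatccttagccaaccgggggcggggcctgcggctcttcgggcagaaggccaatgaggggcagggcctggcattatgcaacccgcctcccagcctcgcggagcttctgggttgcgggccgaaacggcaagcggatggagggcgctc
Per3: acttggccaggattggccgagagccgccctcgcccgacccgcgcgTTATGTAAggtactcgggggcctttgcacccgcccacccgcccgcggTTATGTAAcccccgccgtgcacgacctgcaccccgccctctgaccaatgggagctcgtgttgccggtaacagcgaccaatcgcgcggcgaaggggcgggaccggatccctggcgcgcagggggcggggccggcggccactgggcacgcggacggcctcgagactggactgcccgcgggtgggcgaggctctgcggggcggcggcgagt
Cry1: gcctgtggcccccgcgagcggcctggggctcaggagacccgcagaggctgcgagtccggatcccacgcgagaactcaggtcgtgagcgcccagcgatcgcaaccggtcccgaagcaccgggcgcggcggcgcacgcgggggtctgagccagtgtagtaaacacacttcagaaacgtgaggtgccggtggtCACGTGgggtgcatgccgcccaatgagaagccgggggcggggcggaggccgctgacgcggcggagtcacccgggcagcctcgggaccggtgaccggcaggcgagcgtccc

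Most members that could be tested differed in level among the 6 times, in vehicle livers of both arms and in treated livers. In F tests over the 6 times, the course was called for 7 of 8 members in Wy-14643 livers and 6 of 6 in their vehicle livers, and for 4 of 5 in clofibrate livers and 5 of 6 in their vehicle livers. Over all genes the shares called were 44.9% and 25.8% in the Wy-14643 arm and 30.4% and 10.4% in the clofibrate arm. The 1 uncalled member among those tested was Per1 in Wy-14643 livers (adjusted p = 0.065), Clock in clofibrate livers (0.217) and Per1 in the vehicle livers of that arm (0.0794). The plot of the Wy-14643 arm shows the order of the highest levels in vehicle livers, with Nr1d1 at 2 h, Nr1d2, Per1, Per3 and Dbp at 8 h, Per2 at 12 h, Cry1 at 18 h and Nfil3 at 24 h.

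**Figure D1:**
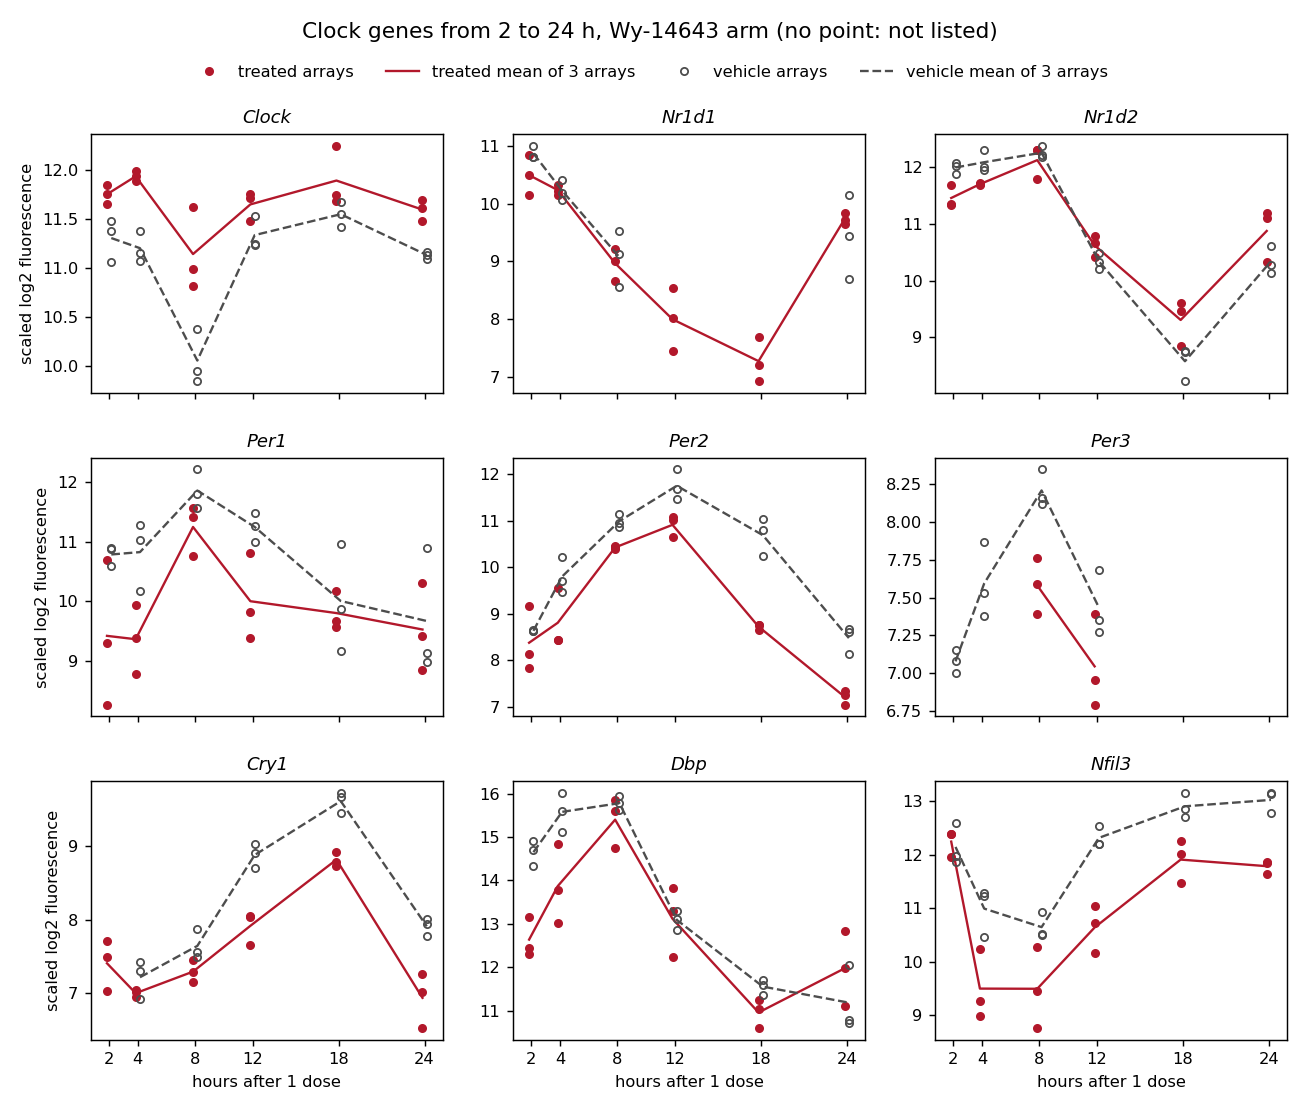
Scaled log2 fluorescence (vertical axis, arbitrary log2 units) against hours after 1 dose in the Wy-14643 arm, with 1 point per array, filled red for Wy-14643 and open grey for vehicle, and lines through the group means of 3 arrays. Clock lies above vehicle at 4 and 8 h, and Nfil3, Per2 and Cry1 lie below vehicle at 24 h.

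Clock, the constitutive partner of BMAL1, had its low point at 8 h. Levels at 8 h were 10.82, 10.99 and 11.63 in Wy-14643 livers, against 9.85, 9.95 and 10.38 in vehicle livers, and the groups did not overlap. In clofibrate livers Clock stood at 10.55, 10.89 and 11.11 at 8 h, against 9.52, 10.01 and 9.78 in vehicle livers, again without overlap. The range of group means over 2 to 24 h was 0.80 log2 in Wy-14643 livers and 1.49 in vehicle livers, and 0.69 in clofibrate livers and 1.34 in vehicle livers. The highest mean stood at 4 h in treated livers and at 18 h in vehicle livers of both arms. In Wy-14643 livers the means at 4 and 18 h were close (11.94 and 11.9), and in clofibrate livers the course of Clock was not called. Npas2, the relative that can stand in for CLOCK, was listed in 2 groups only, both at 24 h: clofibrate livers at 7.31, 7.24 and 7.44, and vehicle livers of the Wy-14643 arm at 6.97, 6.78 and 7.03. It allowed no comparison.

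Nr1d1, which encodes REV-ERBα, was highest at 2 h in all 4 sets of livers and was not listed in vehicle livers at 12 and 18 h. At 2 h it had 10.15, 10.49 and 10.84 in Wy-14643 livers, against 10.81, 11.00 and 10.80 in vehicle livers. At 12 h it was listed in Wy-14643 livers at 8.53, 7.44 and 8.01 and in clofibrate livers at 7.76, 8.01 and 8.15, and in neither vehicle group. At 18 h it was listed in Wy-14643 livers alone, at 7.68, 7.20 and 6.92. No fold can be given against groups where it was not listed. Nr1d2, its paralogue REV-ERBβ, had a smoother course with its highest mean at 8 h and its lowest at 18 h in all 4 sets of livers. Its range was 2.81 log2 (7.03-fold) in Wy-14643 livers and 3.67 (12.7-fold) in vehicle livers, and 3.27 in clofibrate livers and 3.45 in vehicle livers. At 18 h the low point was 9.46, 9.61 and 8.85 in Wy-14643 livers, against 8.23, 8.75 and 8.76 in vehicle livers, without overlap.

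Per1, a repressor that also responds to acute signals, was highest at 8 h in vehicle livers, at 11.57, 11.80 and 12.22 in the Wy-14643 arm and 11.91, 12.10 and 12.42 in the clofibrate arm. The treated values beside them were 10.76, 11.42 and 11.57 with Wy-14643 and 10.70, 10.82 and 10.73 with clofibrate. The treated livers lay below the vehicle livers at 8 h, with no overlap in the clofibrate arm and contact at 11.57 in the other. In clofibrate livers the highest mean of Per1 came at 12 h. Per2, the repressor that peaks later, was highest at 12 h in all 4 sets. Its range was 3.70 log2 (13.0-fold) in Wy-14643 livers and 3.28 (9.68-fold) in vehicle livers. At 18 h it had 8.65, 8.77 and 8.76 in Wy-14643 livers, against 11.04, 10.24 and 10.80 in vehicle livers, and every treated array lay below every vehicle array.

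The Per2 course rests on 1 of 2 probes. The dimmer probe was listed in 21 of the 24 groups from 2 to 24 h, ran only from 7.32 to 8.74 in group means, and did not follow the brighter probe (Pearson r = -0.03 over those groups, a description). Its course was not called in vehicle livers of the Wy-14643 arm (adjusted p = 0.532), and its difference at 18 h was -0.15 log2 (adjusted p = 0.746) where the brighter probe had -1.96. Per3, a member of the family at lower signal, was listed at 2 to 12 h in Wy-14643 arm vehicle livers with its highest mean at 8 h. Its 8 h values were 7.76, 7.59 and 7.39 in Wy-14643 livers, against 8.16, 8.35 and 8.12 in vehicle livers, without overlap. In clofibrate livers it was not listed at 8 h, where the vehicle livers had 9.44, 8.30 and 8.49.

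Cry1, the repressor that closes the loop late, was highest at 18 h in each set of livers where it was listed. At 18 h it had 8.93, 8.79 and 8.74 in Wy-14643 livers, against 9.45, 9.67 and 9.73 in vehicle livers, and 9.86, 9.34 and 9.08 in clofibrate livers, against 9.81, 9.88 and 9.68 in theirs. The Wy-14643 livers lay wholly below their vehicle livers, and the clofibrate livers overlapped theirs. The Cry1 promoter shown above holds the E-box, as does the Per1 promoter shown there, while the other Per1 promoter does not. The highest levels of Cry1 and Per1 were 10 h apart in vehicle livers of the Wy-14643 arm, and a link to the motif was not tested.

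Dbp, an activator at D-box sites, had the largest range among the members whose course could be tested in each set. Its mean spanned 4.44 log2 (21.7-fold) in Wy-14643 livers and 4.59 (24.1-fold) in vehicle livers, and 4.12 (17.4-fold) in clofibrate livers and 4.49 (22.5-fold) in vehicle livers. The 2 vehicle ranges are lower bounds, because all 3 vehicle arrays at 8 h were at the scanner limit, and the treated ranges are not, since no treated array was. On the way to that maximum Dbp had 12.30, 12.45 and 13.16 at 2 h in Wy-14643 livers, against 14.70, 14.91 and 14.34 in vehicle livers. At 4 h it had 13.01, 13.77 and 14.83 in Wy-14643 livers, against 15.11, 16.02 and 15.61 in vehicle livers, so that the groups were apart at both times. At 8 h Dbp had 15.85, 15.61 and 14.74 in Wy-14643 livers, while the vehicle values of 15.62, 15.94 and 15.78 were at the scanner limit, so that the difference at 8 h is not known. Nfil3, which opposes DBP, was lowest at 8 h and highest at 24 h in vehicle livers, where Dbp was highest at 8 h and lowest at 24 h. At 4 h Nfil3 had 10.24, 9.27 and 8.98 at 4 h in Wy-14643 livers, against 11.28, 10.47 and 11.23 in vehicle livers. Its range was 2.75 log2 in Wy-14643 livers, with the highest mean at 2 h, and 2.38 log2 in vehicle livers. In clofibrate livers the range of Nfil3 was 3.13 log2 and in their vehicle livers 2.24 log2.

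**Figure D2:**
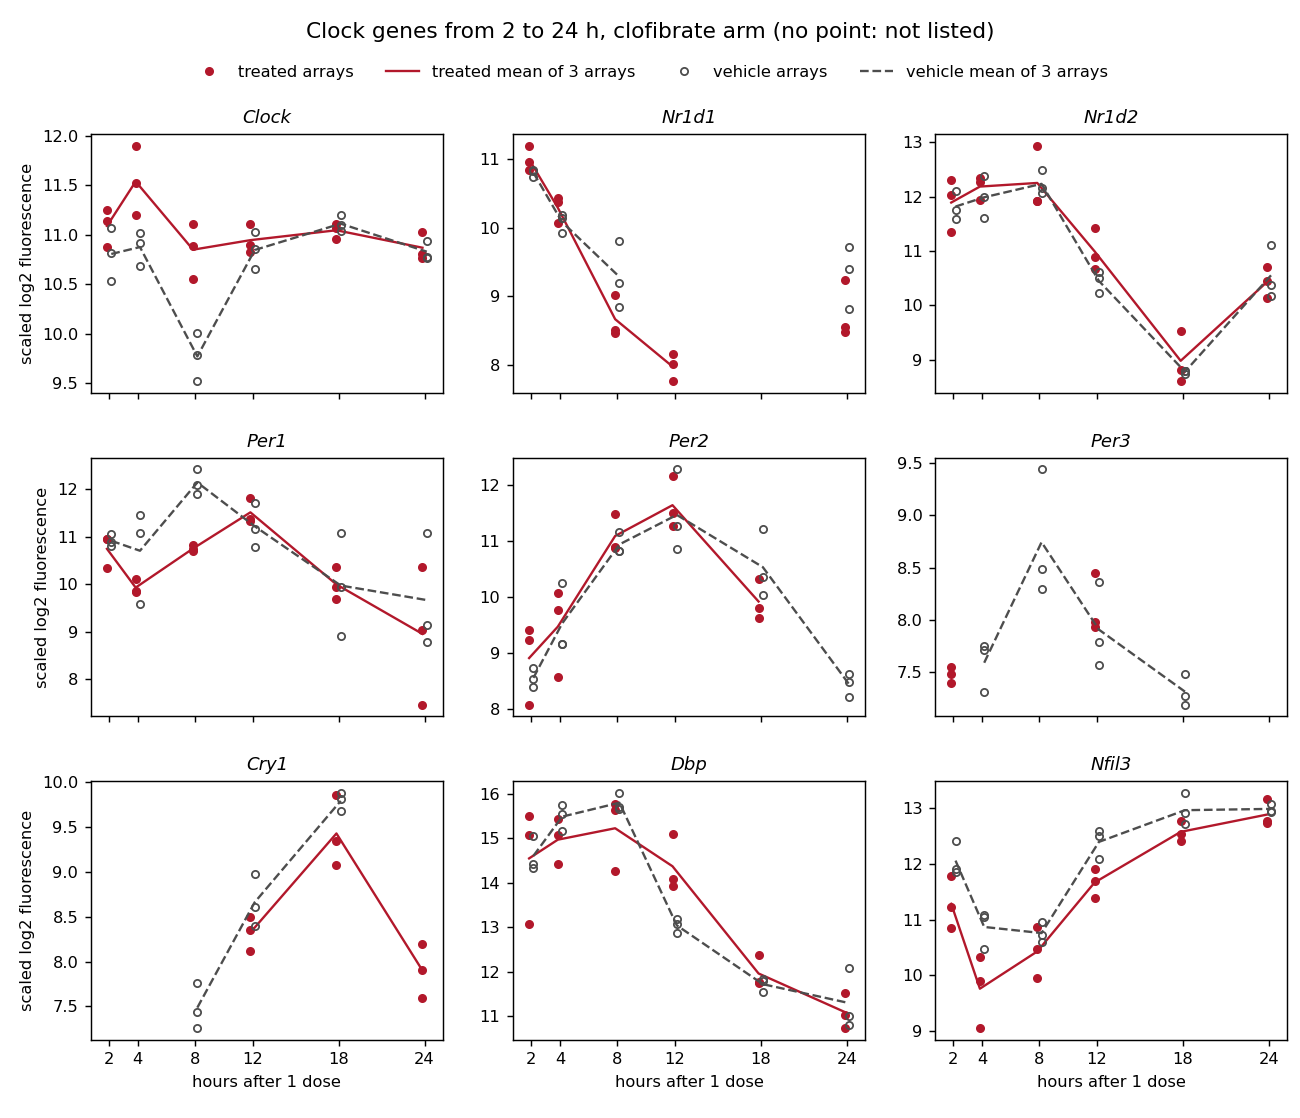
The same plot for the clofibrate arm: scaled log2 fluorescence (vertical axis) against hours after 1 dose, filled red points for clofibrate, open grey points for vehicle, and lines through group means of 3 arrays. Clock at 8 h lies above vehicle on all 3 treated arrays, and Dbp at 12 h lies above vehicle on all 3 (a difference of 1.33 log2 that was not called).

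A 24 h cosine was fitted to each gene listed at all 6 times in both groups of an arm, which gives a peak time and an amplitude (the distance from the mean level to the peak). Vehicle livers of the Wy-14643 arm peaked at 5.80 ± 0.19 h for Nr1d2, 6.85 ± 0.38 h for Dbp, 8.80 ± 0.79 h for Per1, 12.32 ± 0.33 h for Per2, 19.29 ± 0.62 h for Nfil3 and 19.59 ± 0.81 h for Clock (± SE). Vehicle livers of the clofibrate arm peaked at 5.83 ± 0.25, 6.85 ± 0.46 and 8.72 ± 0.80 h for Nr1d2, Dbp and Per1, and at 18.98 ± 0.56 and 19.90 ± 0.82 h for Nfil3 and Clock. The amplitude of Nr1d2 was 1.39 ± 0.11 log2 in Wy-14643 livers and 2.00 ± 0.11 in vehicle livers, and its cosine differed between them (adjusted p = 0.0318), while its peak lay at 5.93 ± 0.27 h and 5.80 ± 0.19 h. It was the 1 member of 6 called in this test, where 4.99% of all genes were called. With clofibrate the amplitude of Nr1d2 was 1.79 ± 0.13 and in vehicle livers 1.83 ± 0.13. The call was lost without vehicle replicate 1, 2 or 3 or treated replicate 1 or 2 (adjusted p = 0.172, 0.124, 0.0744, 0.0644 and 0.138), with values as deposited (0.09), with scaling on all listed probes (0.0816) and with the 1 day groups added (0.117).

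Per2 peaked at 10.80 ± 0.29 h in Wy-14643 livers and at 12.32 ± 0.33 h in vehicle livers, which differ by -1.52 ± 0.44 h. The test was of the whole cosine, amplitude and peak together, which was not called for Per2 (adjusted p = 0.0802) but was with values as deposited (0.0401) and with scaling on all listed probes (0.0171). The amplitude of Clock was 0.23 ± 0.13 in Wy-14643 livers and 0.53 ± 0.13 in vehicle livers, and 0.13 ± 0.11 in clofibrate livers and 0.49 ± 0.12 in vehicle livers (adjusted p = 0.528 and 0.193). With replicate numbers as pairs, Per2 (0.0418) and Clock (0.0303) were called beside Nr1d2 (0.0156) in the Wy-14643 arm, and Clock (0.00314) in the clofibrate arm, where 26.4% and 13.3% of all genes were called. Without the pairs, 0 of 5 members were called for clofibrate with limma (2.1% of all genes), and Clock alone had an unadjusted p under 0.05. The peaks of Dbp were at 7.59 ± 0.45 h in Wy-14643 livers and 6.85 ± 0.38 h in vehicle livers, and at 7.83 ± 0.52 h in clofibrate livers and 6.85 ± 0.46 h in vehicle livers, differences of 0.74 ± 0.59 and 0.99 ± 0.70 h. The whole cosine of Dbp was not called in either arm (adjusted p = 0.573 and 0.837), but without the 24 h groups the difference with Wy-14643 was 1.95 h and the cosine was called (0.0255). All these Dbp fits took vehicle values at the scanner limit as measured, 3 of 3 at 8 h in both arms. The vehicle peaks and amplitudes of Dbp, and the differences from them, are therefore uncertain.

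**Figure D3:**
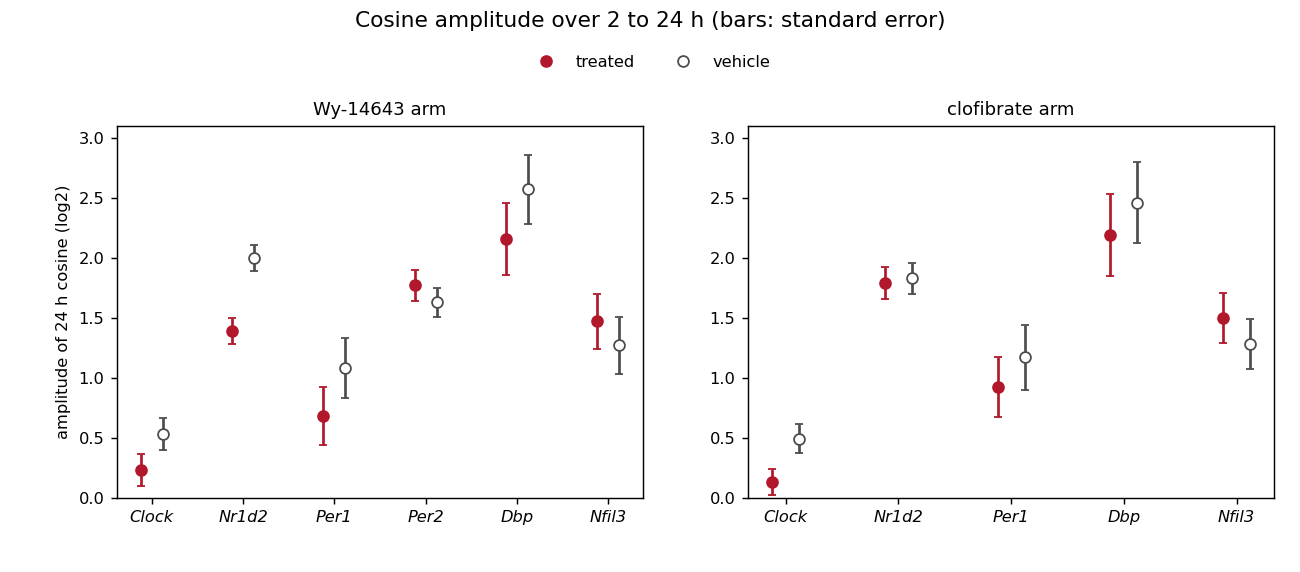
Amplitude of the fitted 24 h cosine (vertical axis, log2) for each member that could be fitted, with Wy-14643 on the left and clofibrate on the right, filled red points for treated livers, open grey points for vehicle livers, and bars of 1 standard error. The bars of Nr1d2 do not overlap in the Wy-14643 arm, at 1.39 and 2.00, and those of Clock do not overlap in either arm.

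The question whether the effect of a compound changed with time was tested directly, as treatment by time over 2 to 24 h. With limma 0 of 6 members were called for Wy-14643 and 0 of 5 for clofibrate, where 9% and 1.36% of all genes were called, and at an unadjusted p under 0.05 there was 1 member in each, Nfil3 and Clock. With paired numbers Clock was called for clofibrate (adjusted p = 0.0028, 26% of all genes). Groups at 1 and 14 days had a wide spread of clock genes and entered the pooled error of that fit. In a fit of the groups at 2 to 24 h alone, chosen after this spread was seen, Nr1d2 (adjusted p = 0.00862), Dbp (0.00937) and Per2 (0.0376) were called for Wy-14643 and Clock (0.0333) for clofibrate, beside 9.15% and 2.3% of all genes. The Dbp test took the vehicle values at the scanner limit at 8 h as measured, so the size of its change with time is not known.

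Wy-14643 changed 5 of the 6 members that could be averaged over the 9 times, 1 up and 4 down. Clock rose by 0.46 ± 0.07 log2 (1.37-fold, adjusted p = 4.08e-07). Per2 fell by 1.16 ± 0.15 (1.43e-08), Per1 by 0.98 ± 0.20 (7.44e-05), Nfil3 by 0.82 ± 0.13 (1.12e-06) and Dbp by 0.75 ± 0.29 (0.0241), each ± SE with the adjusted p. Nr1d2 differed by 0.01 ± 0.11 (adjusted p = 0.961, 95% interval -0.22 to 0.23). Of all genes 56.7% were called, and the median effect was -0.79 for the members and -0.07 for all genes. The Dbp call was lost without treated replicate 1 or 2 or vehicle replicate 1 or 2 (-0.59, -0.76, -0.77 and -0.44 log2, highest adjusted p = 0.173) and with values as deposited (0.0688), while the calls of Clock, Nfil3, Per1 and Per2 held without any 1 replicate.

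At single times after Wy-14643, 0 of 7 members were called at 2 h, 2 of 8 at 4 h, 2 of 9 at 8 h, 2 of 8 at 12 h, 2 of 7 at 18 h and 3 of 8 at 24 h. All genes were called at 4.33%, 10.3%, 16.1%, 19.5%, 22.2% and 17.3% at these times. At 2 h limma gave Clock, Dbp and Per1 an unadjusted p under 0.05.

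Clock rose by 0.74 ± 0.21 log2 (1.67-fold, adjusted p = 0.0157) at 4 h. The rise at 8 h was 1.09 ± 0.21 log2 (2.12-fold, 0.00016). At 4 h its levels were 11.99, 11.94 and 11.89 in Wy-14643 livers, against 11.16, 11.08 and 11.38 in vehicle livers. From 2 to 24 h the difference of means was above 0 at each of the 6 times, and treated and vehicle arrays did not overlap at 5 of them. That is a description, without the share of all genes beside it. A second Clock probe gave 0.54 ± 0.19 at 4 h (adjusted p = 0.0695) and 0.77 ± 0.19 at 8 h (0.00364), and the next brightest gave 0.34 ± 0.24 at 4 h (0.463). The 4 h call was lost without treated replicate 1 or 2 or vehicle replicate 1 (adjusted p = 0.0647, 0.0819 and 0.0662). With paired numbers Clock was also called at 24 h (0.0373, 30.3% of all genes). Without pairs the second and the next brightest Clock probe gave 0.34 (limma adjusted p = 0.221) and -0.02 (0.968) at 24 h.

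Nfil3 was called lower at 4 times, with an SE of 0.39 log2 at each. It fell 2.83-fold at 4 h (adjusted p = 0.0083), and by 1.16 log2 or 2.23-fold at 8 h (0.0366). The fall at 12 h was 3.20-fold (-1.68 log2, adjusted p = 0.00145), and that at 24 h was 2.36-fold (-1.24 log2, 0.0239). At 12 h it had 10.16, 11.04 and 10.72 in Wy-14643 livers, against 12.21, 12.21 and 12.53 in vehicle livers. At 24 h it had 11.85, 11.87 and 11.64, against 13.16, 12.79 and 13.13. The groups were apart at both times and at 4, 8 and 18 h. The call at 12 h held without any 1 replicate, those at 4, 8 and 24 h each were lost without at least 3 of the 6 (highest adjusted p = 0.0819, 0.32 and 0.0993), and the 24 h call also with values as deposited (0.0928). A fit of the groups compared alone ended the calls at 4 h (0.068) and 8 h (0.0742), and the 8 h call was also lost with the other Nfil3 probe (-0.95 log2, 0.103), with scaling on all listed probes (0.0582) and with quantile normalization (0.0652). At 2 h Nfil3 stood at 12.39, 12.39 and 11.96 in Wy-14643 livers and 11.86, 11.98 and 12.60 in vehicle livers.

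Among the repressors of the loop, Cry1 fell at 12 h by 0.96 ± 0.23 (adjusted p = 0.00156), at 18 h by 0.80 ± 0.23 (0.00816) and at 24 h by 0.97 ± 0.23 (0.00187) (1.95-, 1.74- and 1.96-fold). At 24 h Cry1 had 7.27, 7.02 and 6.53 in Wy-14643 livers, against 7.95, 8.01 and 7.78 in vehicle livers. Per2 fell by 1.96 ± 0.45 log2 (3.90-fold, adjusted p = 0.00106) at 18 h. Its fall at 24 h was 1.26 ± 0.45 log2 (2.40-fold, 0.0465), and there it had 7.25, 7.35 and 7.05 in Wy-14643 livers and 8.68, 8.62 and 8.14 in vehicle livers. Neither gene's groups overlapped at these times. The Cry1 call at 18 h was lost without vehicle replicate 3 (adjusted p = 0.0515), and that at 24 h with quantile normalization (0.0815). The Per2 call at 24 h was lost without treated replicate 1, 2 or 3 or vehicle replicate 1 (0.115, 0.111, 0.153 and 0.152) and under each other scaling (as deposited 0.145, with the median of all genes moved by 0.39, median 0.0607, all listed probes 0.0678 and quantile 0.198).

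Further members passed when replicate numbers were taken as pairs. Per1 was called at 2 h (-1.37 log2, adjusted p = 0.0341, 10.1% of all genes), 4 h (-1.47, 0.0128, 19.2%) and 12 h (-1.25, 0.0249, 29.3%), and Per3 at 8 h (-0.63, 0.003, 25%) and 12 h (-0.39, 0.0349). Dbp differed by -2.02 at 2 h and -1.71 at 4 h without a call (adjusted p = 0.21 and 0.232), although its groups did not overlap. In the fit of 2 to 24 h alone Dbp was called at 2 h (0.00372, 4.74% of all genes) and at 4 h (0.00728, 10.4%), Per2 at 4 h (0.0161), and at 18 h Nfil3 (0.0193) and Nr1d2 (0.73, 0.00902, 22.8%).

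**Figure D4:**
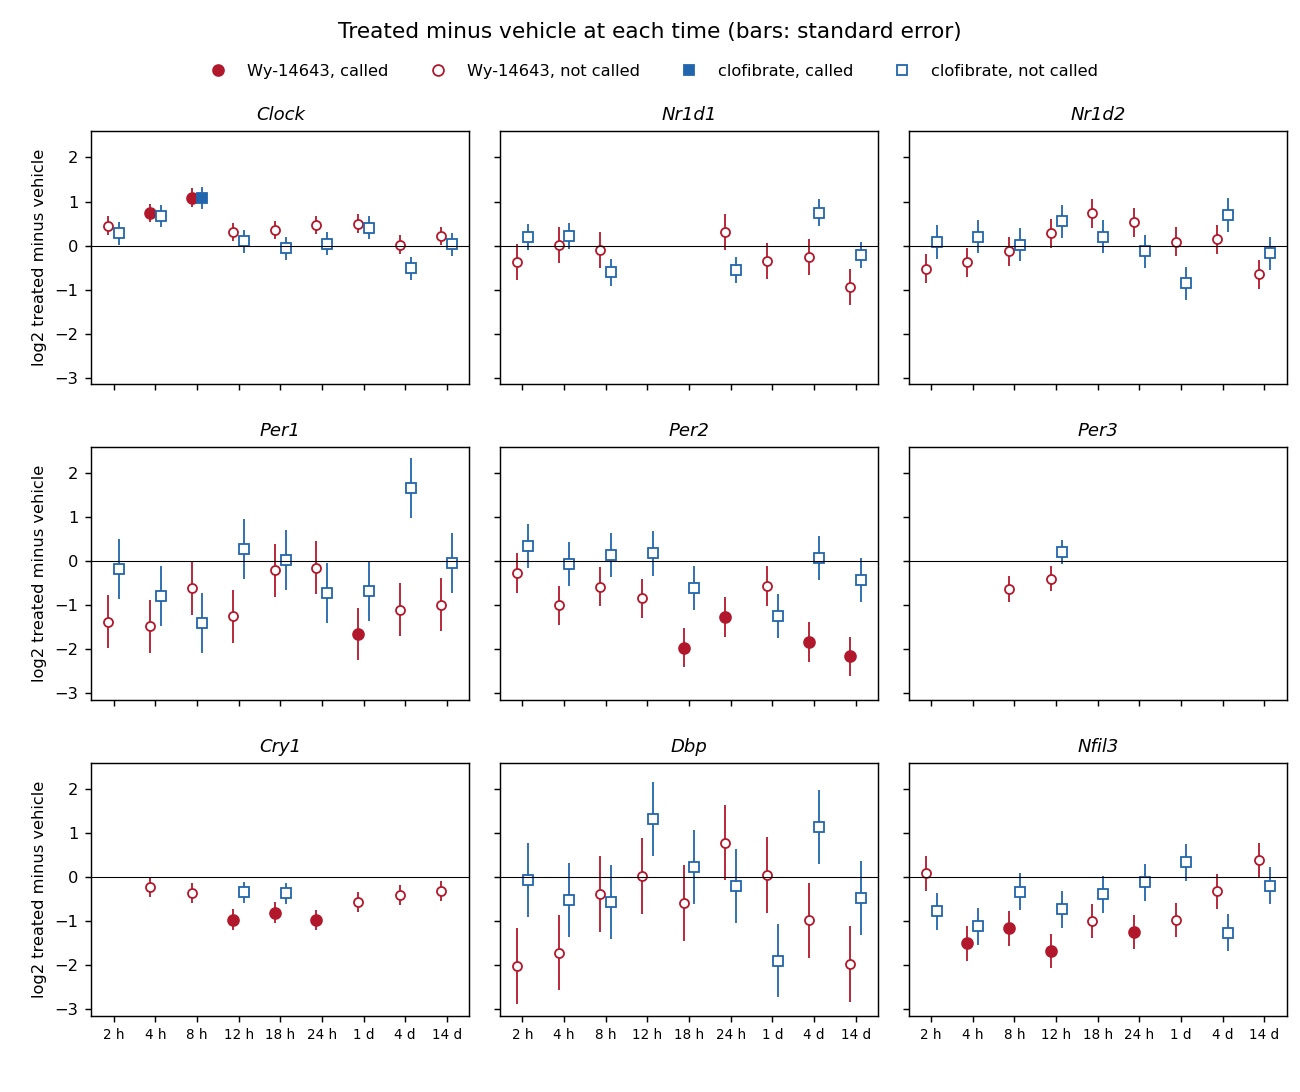
Treated minus vehicle (vertical axis, log2) at each of the 9 times for Wy-14643 (red circles) and clofibrate (blue squares), with bars of 1 standard error and filled symbols for calls. Most filled symbols are those of Wy-14643 for Clock, Per2, Cry1 and Nfil3, and clofibrate has 1, Clock at 8 h.

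Clofibrate changed few of the members. In the mean over the 9 times 1 of 5 was called, Nfil3, which fell by 0.51 ± 0.14 log2 (1.42-fold, adjusted p = 0.0189), where 5.73% of all genes were called. That call was lost without vehicle replicates 1 or 3 or treated replicate 3 (highest adjusted p = 0.164). Clock differed by 0.22 ± 0.09 (adjusted p = 0.142, or 0.00388 with paired numbers, where 23.2% of genes were called). The medians of the members and of all genes were -0.11 and -0.02.

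At single times after clofibrate only Clock at 8 h was called, of 7 members tested (11.3% of all genes). It rose 2.11-fold there (1.08 ± 0.26 log2, adjusted p = 0.00465), beside the 2.12-fold rise with Wy-14643. The clofibrate call rests on 1 of 4 Clock probes, since no other could be tested at 8 h in this arm. With each array scaled over every probe listed on it, which moved the median of all genes at 8 h by -0.47, Clock differed by 0.61 (adjusted p = 0.0617), and the call was also lost without treated replicate 3 (0.0741) and in a fit of the groups compared alone (0.051). At the other times 0 members were called: 0 of 7 at 2 h, 4 h and 18 h, 0 of 8 at 12 h, 0 of 6 at 24 h and 1 day, and 0 of 7 at 4 and 14 days. All genes were called at 0.303% at 2 h, 2.61% at 4 h, 1.33% at 12 h, 0.17% at 18 h, 0.0499% at 24 h, 0.169% at 1 day, 0.317% at 4 days and 0.0389% at 14 days. By unadjusted p under 0.05 limma gave 2 members at 4 h, 3 at 1 day and 3 at 4 days, and 0 at the other 5 of these times. Clock at 4 h stood at 11.52, 11.90 and 11.20 in clofibrate livers, against 10.92, 11.02 and 10.69 in vehicle livers, without overlap (0.67 ± 0.26, adjusted p = 0.223).

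With paired numbers 3 further results passed for clofibrate. Clock was called at 4 h (adjusted p = 0.00658, 15.8% of all genes), Per1 at 8 h (-1.40 log2, 0.00981, 38.2%) and Per1 at 4 days (1.66, 0.016, 5.39%). The paired fit at 4 days was not repeated without the vehicle array that has a near copy. At 8 h treated and vehicle arrays of number 3 did not deviate together in this arm (r = -0.04, against 0.56 and 0.38 for numbers 1 and 2), so the pairs there rest on a shared number only. In the fit of 2 to 24 h alone Clock (0.0328) and Nfil3 (-1.11, 0.0156) were called at 4 h, beside 3.01% of all genes.

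The difference between the compounds was tested gene by gene in 1 fit of both arms, at matched doses and times. That fit took the vehicle sets of the arms as separate livers, although equal-numbered vehicle arrays deviated alike, so its errors may be too large if livers were shared. With limma 0 members were called: 0 of 7 at 2, 4, 8, 18 h, 4 days and 14 days, 0 of 8 at 12 h, 0 of 6 at 24 h and 1 day, and 0 of 5 in the mean. Over all genes 0% were called at 2 h and at 4 h, 0.0322% at 8 h, 0.722% at 12 h, 2.85% at 18 h, 2.34% at 24 h, 0.909% at 1 day, 1.1% at 4 days, 1.95% at 14 days and 18.2% in the mean. Unadjusted p under 0.05 was reached by Nfil3 at 1 day, Per1 and Per2 at 4 days, Per2 at 14 days, and Clock and Per1 in the mean. At 8 h the effects of Wy-14643 and clofibrate on Clock differed by 0.01 (95% interval -0.67 to 0.68). In the mean, Wy-14643 minus clofibrate was -0.78 for Per1 (95% interval -1.40 to -0.16, adjusted p = 0.0704), -0.64 for Dbp (-1.47 to 0.18), -0.31 for Nfil3 (-0.70 to 0.08), 0.23 for Clock (0.01 to 0.46) and -0.05 for Nr1d2 (-0.40 to 0.29). With paired numbers Per1 (adjusted p = 0.00245) and Clock (0.0222) were called in the mean (36.4% of all genes), and Per1 at 4 days (-2.76, 0.00404, 5.92%). At 4 days Per1 stood at 7.37, 8.56 and 9.99 in Wy-14643 livers and 8.58, 9.47 and 11.15 in their vehicle livers, and at 10.86, 11.52 and 12.09 in clofibrate livers and 8.83, 9.28 and 11.36 in theirs.

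At 1 and 14 days of daily dosing, livers of 1 group were often far apart in clock genes. The median SD of Dbp over groups was 0.43 log2 at 2 to 24 h, 1.98 at 1 day, 0.45 at 4 days and 2.12 at 14 days. For Nr1d2 it was 0.25 at 2 to 24 h, 0.83 at 1 day, 0.28 at 4 days and 0.63 at 14 days. At 1 day Dbp had 11.61, 13.53 and 13.29 in Wy-14643 livers and 11.56, 16.15 and 10.55 in their vehicle livers, and 11.35, 10.46 and 11.17 in clofibrate livers and 11.55, 16.22 and 10.86 in theirs. Vehicle array 2 of each arm thus had a level like that of 8 h, and the other vehicle arrays a level like that of 24 h. At 14 days Dbp had 12.67, 11.07 and 13.69 in Wy-14643 livers and 16.02, 15.72 and 11.59 in their vehicle livers, and 11.83, 15.85 and 12.73 in clofibrate livers and 14.00, 16.03 and 11.78 in theirs, of which 14.00 is the near copy of a 4 day array.

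The members deviated together within these groups. Over the 36 arrays at 1, 4 and 14 days, deviations from the group mean correlated with those of Dbp at r = 0.90 for Nr1d2, -0.89 for Nfil3, -0.64 for Clock and 0.35 for Per1. The same r over the 72 arrays of 2 to 24 h were 0.54, -0.50, -0.07 and 0.02. These are descriptions, since the probes share arrays. The vehicle liver with high Dbp at 1 day had low Nfil3 (11.22 against 12.68 and 13.93 in the Wy-14643 arm) and low Clock (10.34 against 11.14 and 11.32). The labels give no hour of the day for these livers, and the cause of the spread was not tested.

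**Figure D5:**
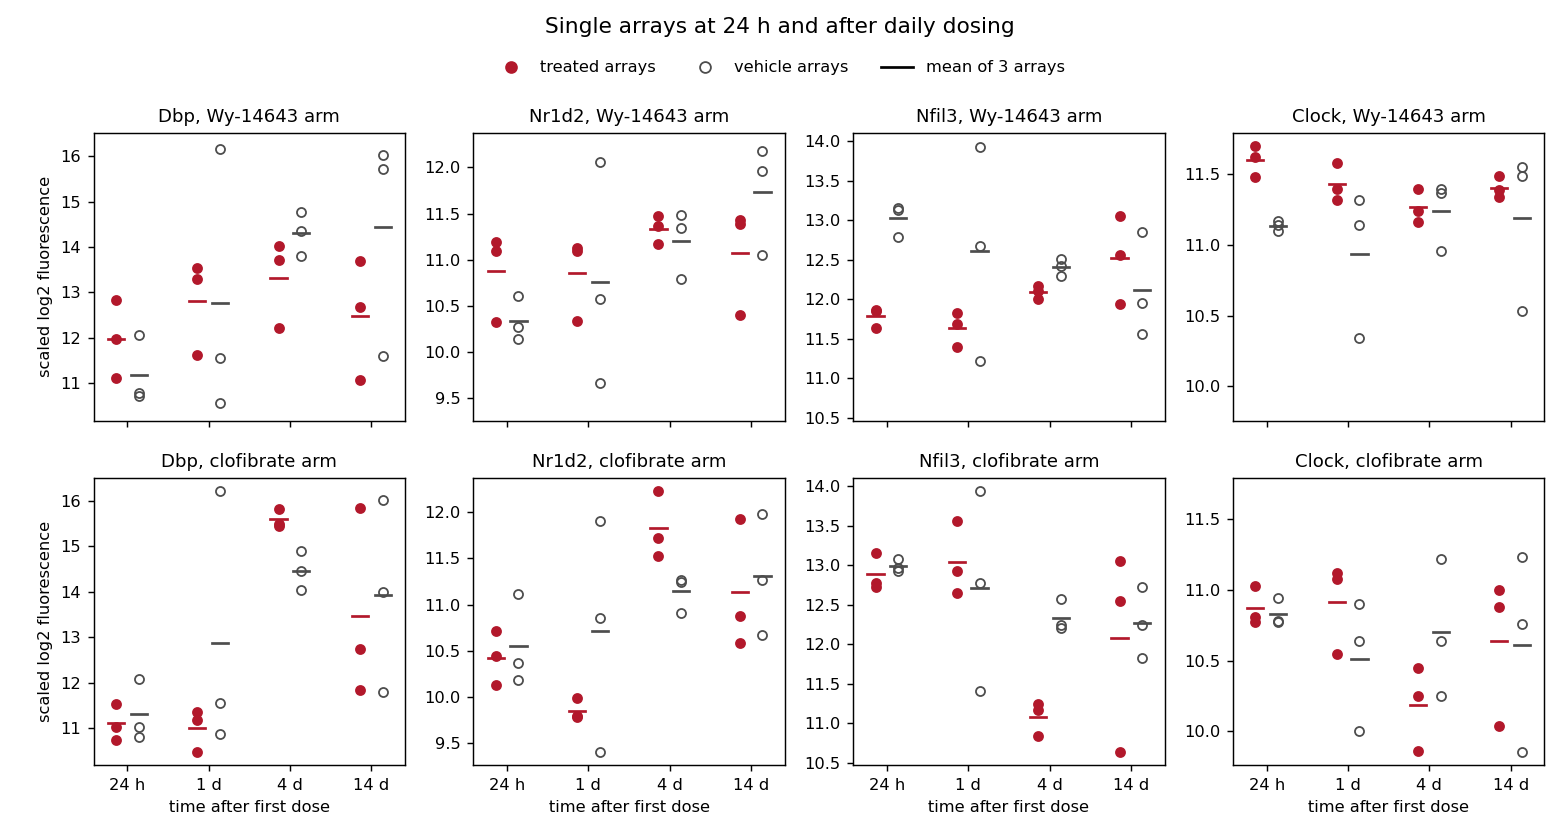
Scaled log2 fluorescence (vertical axis) of Dbp, Nr1d2, Nfil3 and Clock on single arrays at 24 h and at 1, 4 and 14 days, with the Wy-14643 arm above and the clofibrate arm below, filled red points for treated and open grey points for vehicle arrays, and short lines at the means of 3 arrays. At 1 day vehicle array 2 of each arm lies more than 4 log2 above the other vehicle arrays for Dbp.

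Wy-14643 effects after daily dosing were called for 1 of 8 members at 1 day, 1 of 8 at 4 days and 1 of 8 at 14 days, where 23.5%, 8.24% and 14.8% of all genes were called. At 1 day Per1 fell 3.13-fold (-1.65 ± 0.60 log2, adjusted p = 0.0423), with 9.20, 8.90 and 9.02 in Wy-14643 livers and 10.07, 10.81 and 11.19 in vehicle livers. Per2 fell 3.57-fold at 4 days (-1.83 ± 0.45, adjusted p = 0.00642), with 7.47, 7.75 and 7.92 in Wy-14643 livers and 9.41, 9.60 and 9.62 in vehicle livers. At 14 days it fell 4.47-fold (-2.16 ± 0.45, 0.000509), with 7.43, 7.27 and 8.18 in Wy-14643 livers and 9.75, 11.19 and 8.43 in vehicle livers. The groups did not overlap in any of these. The Per1 call was lost without treated replicate 1, 2 or 3 or vehicle replicate 2 or 3 (adjusted p = 0.0564, 0.151, 0.0636, 0.102 and 0.129) and under each other scaling (-1.03 log2 and 0.144 as deposited, which moved the median of all genes by 0.62, and 0.0558, 0.0669 and 0.0819 with median, all listed probes and quantile), and the Per2 call at 4 days without treated replicate 1 (0.0567). The dimmer Per2 probe differed by -0.01 at 14 days (adjusted p = 0.984). Nfil3, lower in the mean over the 9 times, differed by -0.97, -0.32 and 0.40 log2 at 1, 4 and 14 days, without a call.

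At 1 day Clock differed by 0.50 ± 0.21 (adjusted p = 0.0784) and Cry1 by -0.56 ± 0.23 (0.0689) with Wy-14643, and both were called with paired numbers (0.0227 and 0.031, 36.6% of all genes). Without pairs the second and the next brightest Clock probe gave 0.35 (limma adjusted p = 0.186) and -0.05 (0.905) at 1 day. With pairs Nr1d1 was also called at 14 days (-0.95 log2, adjusted p = 0.0297, 23.9%), where it had 9.23, 7.65 and 9.06 in Wy-14643 livers and 10.71, 9.13 and 8.96 in vehicle livers. Nr1d1 was not called there without pairs (limma adjusted p = 0.127), and another of its probes gave -0.35 (0.301). With clofibrate the Dbp levels at 4 days were 15.83, 15.50 and 15.46, against 14.04, 14.89 and 14.45 in vehicle livers, and those of Nfil3 were 11.24, 10.84 and 11.17, against 12.24, 12.57 and 12.20. Both pairs of groups were apart, without a call (adjusted p = 0.934 and 0.258). Leaving out the copied array at 4 or 14 days gave no further call for clofibrate.

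Vehicle livers of later times were set against those of 24 h as a check on the background level. In the Wy-14643 arm 0 of 8 members were called at 1 day and at 4 days and 2 of 8 at 14 days, where 0.189%, 0.906% and 1.03% of all genes were called. At 14 days Dbp was higher by 3.26 ± 0.86 log2 (adjusted p = 0.0488) and Nr1d2 by 1.39 ± 0.33 (0.0326), calls that were lost without vehicle replicate 1 (adjusted p = 0.302 and 0.186) or vehicle replicate 2 (0.672 and 0.593), and in a fit of the groups compared alone (0.178 and 0.061). In the clofibrate arm 0 of 7 were called at each time, with 0.00989%, 0.079% and 0.0101% of all genes. Unadjusted p from limma under 0.05 was reached by Per2 in all 6 of these comparisons, and by Dbp at 4 and 14 days in both arms.

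Other genes of the clock loop showed both directions with Wy-14643. Of 8 that could be tested in the mean with Wy-14643, 5 were called, 1 up and 4 down (median -0.19 log2), near the 56.7% of all genes called, and of 7 with clofibrate none was (median -0.17), where 5.73% of all genes were called. Bhlhe40, a repressor of CLOCK and BMAL1, fell by 0.89 ± 0.13 (adjusted p = 2.12e-07), Tef, a relative of DBP, by 0.61 ± 0.16 (0.00117), Cry2 by 0.45 ± 0.07 (3.18e-07) and Rora, an activator of Arntl, by 0.29 ± 0.07 (0.000275). Timeless rose by 0.22 ± 0.09 (0.036). Tef had a course like that of Dbp, highest at 8 h in Wy-14643 livers (1.95 log2 range) and in their vehicle livers (2.58). Arntl itself was not listed at every time, so its mean and course were not tested.

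Genes of liver metabolism known to follow the clock included several that changed with Wy-14643. Of 17 that could be tested in the mean 13 were called, 5 up and 8 down (median -0.11 log2), beside 56.7% of all genes. With clofibrate 2 of 15 were, 1 up and 1 down (median -0.04), beside 5.73%. Cyp2a4 and Cyp2a5, uncalled in both, were at the scanner limit on at least 24 of the 27 arrays of each set. Cyp7a1, the rate-limiting enzyme of bile acid synthesis, fell by 1.82 ± 0.22 (3.53-fold, adjusted p = 3.38e-09) and Upp2, a uridine phosphorylase, by 1.81 ± 0.21 (9.5e-10). Lpin1, a phosphatidate phosphatase and coactivator, fell by 1.07 ± 0.15, Noct, a deadenylase-related protein of daily lipid metabolism, by 0.96 ± 0.23, Usp2 by 0.82 ± 0.18, Avpr1a by 0.81 ± 0.08 and Ppargc1a by 0.65 ± 0.12. Pnpla2, adipose triglyceride lipase, rose by 1.14 ± 0.06 (2.21-fold, 2.06e-20), Insig2 by 0.89 ± 0.10 and Ppargc1b by 0.41 ± 0.11. With clofibrate Pnpla2 rose by 0.49 ± 0.09 (9.7e-05) and Avpr1a fell by 0.40 ± 0.08 (0.00117). The effect changed with time over 2 to 24 h for 4 of 18 with Wy-14643, among them Cyp7a1 and Pnpla2, and for 1 of 16 with clofibrate, Tfrc, the transferrin receptor (adjusted p = 0.0314), beside 9% and 1.36% of all genes.

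Among genes outside the 10 members, those whose group means followed Dbp most closely over 2 to 24 h were Arhgef26 (Pearson r = 0.911 over 24 groups), Pptc7 (0.886 over 24), Fam76a (0.846 over 24), P2ry2 (0.841 over 24) and 1700001L05Rik (0.839 over 21). They were picked among genes listed with Dbp in at least 20 groups and with a range of at least 1 log2, and their own ranges were 1.13 to 1.72 log2. The groups share arrays and scaling, so r is a description. Nr1d1, listed in 19 of these groups, and Npas2, in 2, had too few for the same search.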

How the data were processed

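The authors deposited 1 value per probe and array as log2 fluorescence of 108 single-colour Agilent arrays, as the values in the deposited tables show, with 51.5% of the 41096 probe values empty. The software and settings behind these values are not given in the sources used here. Each array was shifted so that its 75th percentile over the 12210 probes listed on all arrays was equal. A gene was represented by its brightest probe, named from the platform annotation. Each arm was fitted with limma 3.58.1 in R 4.3.3, with 1 mean per group, a variance trend and Benjamini-Hochberg adjustment over all genes of a comparison. Tests needed at least 2 listed arrays in each group. Course and treatment by time were F tests over 2 to 24 h, the cosine had a period of 24 h, and 1 joint fit gave the difference between compounds. Promoters and figures were made with Python 3.11.15.

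The members and gene lists were chosen with earlier results of these data known. All members were named, and of each other list up to 10 called genes by size of the mean effect. The labels call the 3 arrays of a group biological replicates, and this number limits the precision. Samples of equal replicate number deviated together (correlation over 0.1 for all 3 numbers) in 16 of 18 treated and vehicle comparisons, so the fit with the replicate number as a block is given where it changed a call. Alternatives covered scaling, probe choice, the samples and times in the fit, the variance model and leaving out each replicate. The fit of 2 to 24 h alone was chosen after seeing the data. The tests were checked on simulated data.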

Additional observations from a re-analysis of the deposited data

Results flagged for a closer look

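Time tests were screened here for the 10 members, the other genes named above for their mean effect, and Tfrc, and cosine tests for the members only. Within that screen, for 4 results the effect of a compound differed between times or between the courses of treated and vehicle livers by a direct test. Genes outside it were called too, among them Insig2 in the clofibrate cosine (adjusted p = 0.000267, limma) and Pnpla2 in that of Wy-14643 (0.00331). The effect of Wy-14643 changed over 2 to 24 h for Pnpla2 (adjusted p = 4.08e-05, limma) and for Cyp7a1 (0.0144). The effect of clofibrate changed over the same hours for Tfrc (adjusted p = 0.0314, limma). The 24 h cosine of Nr1d2 differed between Wy-14643 and vehicle livers (adjusted p = 0.0318, limma), with amplitudes of 1.39 and 2.00 log2. That call was lost in 5 of the 6 fits that left out 1 replicate (highest adjusted p = 0.172), with values as deposited (0.09), with scaling on all listed probes (0.0816) and with the 1 day groups added (0.117), and Nr1d2 was not called in the treatment by time test (0.276). Groups held 3 arrays, too few for a test of single outlying arrays.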

How the results depend on the processing

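No call of a member reversed under any alternative. Counts of members called moved by over 1.5 times in the alternatives named first, and the ranges without 1 replicate that close the paragraph include smaller moves. With the replicate block they were 1 in place of 0 for Wy-14643 at 2 h, 4 in place of 2 at 12 h, 3 in place of 1 at 1 day and 2 in place of 1 at 14 days, 1 in place of 0 for clofibrate at 4 h, at 4 days, by time and in the cosine, 2 in place of 1 at 8 h and in the mean, 3 in place of 1 in the Wy-14643 cosine, and, between compounds, 1 in place of 0 at 4 days and 2 in place of 0 in the mean. In fits of the groups compared alone Wy-14643 had 1 at 2 h and at 4 h, 4 at 12 h and 5 at 18 h. The same fits had 1 between compounds at 24 h and 4 days, and in vehicle livers at 4 days 2 in the Wy-14643 arm and 1 in the clofibrate arm, and 0 at 14 days in the Wy-14643 arm. In the fit of 2 to 24 h alone it had 1 at 2 h, 4 at 4 h and at 18 h, and 3 by time, and clofibrate 2 at 4 h and 1 by time. With another probe or the mean of probes Wy-14643 had 0 or 1 at most times, 2 at 1 day and 4 in the treated course in place of 7, and clofibrate 0 at 8 h. The mean of probes could be taken only for the 5 members listed in all 36 groups, and other probes were often listed in fewer groups. These lower counts therefore include members that could not be tested. Shares of all genes called are given above for only some of the alternatives, so the counts are descriptions. Scaling gave 1 for Wy-14643 at 8 h (all listed probes, quantile) and 24 h (quantile), 0 at 1 day (quantile), 2 for clofibrate at 8 h (all listed probes) and in the mean (as deposited), and 2 for vehicle livers of the Wy-14643 arm at 4 days (as deposited). The Wy-14643 cosine had 2 without 24 h and 0 with 1 day added. Leaving out 1 replicate gave 0 to 2 for Wy-14643 at 4 h, 1 to 2 at 8 h, 1 to 3 at 24 h, 0 to 2 at 1 day, 0 to 1 at 4 days and 1 to 4 at 14 days, 4 to 5 in the mean, 6 to 8 in the treated and 5 to 6 in the vehicle course and 0 to 1 in the cosine, 0 to 1 for clofibrate at 8 h and in the mean, 3 to 4 in its treated and 4 to 6 in its vehicle course, 0 to 1 between compounds in the mean, and 0 to 2 for vehicle livers of the Wy-14643 arm at 14 days. The causes of these changes were not tested.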
